A study of Homo sapiens with 39 samples.

Results

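BCL6, BACH2, IRF8, IRF4, PRDM1 and XBP1 are the transcription factors that set whether a B cell stays in the germinal centre programme or becomes an antibody-secreting plasma cell. They were taken by symbol from a table of RNA counts for human B cell lymphoma lines, and are 6 of its 15808 genes. All 6 were among the 12814 genes with enough counts to be tested. BCL6 and BACH2 passed that filter although each was nearly or wholly absent from the libraries of 1 line.

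RNA was sequenced from 39 libraries of 4 lines, each labelled with a 6 h treatment. Compound and time are those of each library's own label. A protocol text common to all samples names other compounds (vorinostat and pracinostat) and also a longer time, and that conflict was not resolved here. The lines DOHH2, Toledo, OCILy10 and TMD8 each had 3 libraries with DMSO, which is the vehicle, 3 with NEO2734 and 3 with OTX015, and OCILy10 had 3 more with CB103. NEO2734 blocks the bromodomains of both BET proteins and CBP/p300, OTX015 (birabresib) those of BET proteins, and CB103 the assembly of the Notch transcription complex. No label states a dose or that replicates were grown apart, and p-values therefore cover the spread among libraries, which may be technical. The lines are established diffuse large B cell lymphoma lines, usually described as the germinal centre type for DOHH2 and Toledo and the activated B cell type for OCILy10 and TMD8. That typing is background knowledge and stands in no label.

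In a germinal centre B cell, BCL6 represses genes of activation and of plasma cell differentiation, BACH2 holds back the plasma cell programme, and IRF8 takes part in the germinal centre programme. Rising IRF4 goes with the induction of PRDM1, which encodes BLIMP1, a repressor of B cell identity genes. XBP1 then drives the secretory apparatus. IRF4 is a hallmark of lymphoma of the activated B cell type, in which NF-kB signalling is chronically on.

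The genes lie on GRCh38 at chr3:187721377-187745727 on the minus strand (BCL6, ENSG00000113916.16), chr6:89926529-90296908 on the minus strand (BACH2, ENSG00000112182.13) and chr16:85898803-85922609 on the plus strand (IRF8, ENSG00000140968.9). IRF4 (ENSG00000137265.13) lies at chr6:391739-411447 and PRDM1 (ENSG00000057657.13) at chr6:106086320-106109939, both on the plus strand, and XBP1 (ENSG00000100219.15) at chr22:28794555-28800597 on the minus strand. All are protein-coding genes, and the identifiers are those of the count table.

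The RefSeq promoters of IRF4 and PRDM1, which were called lower after NEO2734, and that of BCL6 are shown because the results turn on these genes. The RefSeq windows of IRF8 lie inside the gene span given above and are not shown. The BCL6 window shown also lies inside its gene span given above, so it is upstream of the RefSeq start only. All 6 symbols matched a RefSeq promoter, and where a gene had 2 the more upstream one is shown. Each is the 250 bases before the RefSeq start in GRCh38.p14, 5′ to 3′ on the gene's strand, with matches to the searched motifs in capitals.
IRF4, chr6:391502-391751, plus strand: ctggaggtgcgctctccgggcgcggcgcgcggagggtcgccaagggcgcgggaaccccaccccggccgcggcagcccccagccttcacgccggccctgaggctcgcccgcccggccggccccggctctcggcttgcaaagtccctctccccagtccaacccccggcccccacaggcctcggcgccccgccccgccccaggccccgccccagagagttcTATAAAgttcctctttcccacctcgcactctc
PRDM1, chr6:106086086-106086335, plus strand: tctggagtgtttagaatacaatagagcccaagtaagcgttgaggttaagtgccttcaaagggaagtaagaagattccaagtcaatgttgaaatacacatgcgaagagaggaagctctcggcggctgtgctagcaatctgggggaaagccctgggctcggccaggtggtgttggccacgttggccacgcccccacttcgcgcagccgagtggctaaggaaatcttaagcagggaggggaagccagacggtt
BCL6, chr3:187745469-187745718, minus strand: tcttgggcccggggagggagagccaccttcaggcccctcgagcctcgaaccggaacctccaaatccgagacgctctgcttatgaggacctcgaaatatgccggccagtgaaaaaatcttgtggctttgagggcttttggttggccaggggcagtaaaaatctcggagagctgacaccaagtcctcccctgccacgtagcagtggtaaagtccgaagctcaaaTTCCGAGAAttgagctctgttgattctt
The IRF4 promoter had 76% G and C and 28 CpG dinucleotides. That of PRDM1 had 53.6% and 11, and that of BCL6 54.4% and 12, beside medians of 58% and 11 over 35116 RefSeq promoter windows of the same length. Searched on both strands were the interferon response core (GAAA and GAAA set 2 bases apart), the Ets-IRF composite core (GGAA and GAAA set 2 bases apart), the STAT and BCL6 core (TTCNNNGAA), an NF-kB core (GGG and TTCC set 3 bases apart) and the TATA box (TATAAA). The capitals in IRF4 are a TATAAA that begins 32 bases before the start, a motif that 10.7% of all windows held. The capitals in BCL6 are a TTCNNNGAA match that begins 28 bases before the start, and 6.57% of windows held that motif. The interferon response core was in 3.02% of windows, the Ets-IRF core in 2.41% and the NF-kB core in 5.67%, and none of these 3 motifs was in any of the 3 windows shown. No match says only that these letters are not in these windows.

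Library totals ran from 1000281 to 11668542 counts, in 15 deep libraries of at least 6670250 and 24 shallow ones of at most 3420458, with at least 1 deep library in each group. Levels are counts scaled by TMM to a library of 1000000 (CPM), and n is 3 libraries in every group. Genes found in a single line were chosen in 36 libraries, with 3 set aside. They numbered 16 for DOHH2, 13 for Toledo, 10 for OCILy10 and 11 for TMD8. In those 36 libraries the genes of another line stood at a median of no more than 2.18% of their level in that line. The choice itself keeps that share low. The other 3 libraries held more. In Toledo DMSO replicate 2 the OCILy10 genes stood at 72.2% of their OCILy10 level, with Toledo's own genes at 37.0%. In OCILy10 CB103 replicate 2 the Toledo genes stood at 25.8%, and in DOHH2 NEO2734 replicate 3 the OCILy10 genes stood at 10.6%. The main results that rest on one of these libraries are also given without it. As compound checks, HEXIM1, a gene known to rise with BET inhibition, rose by 2.10 ± 0.24 after NEO2734 and by 1.85 ± 0.24 after OTX015 on the log2 scale. MYC fell by 1.38 ± 0.22 and by 0.77 ± 0.22 (adjusted p = 4.39e-05 and 0.0196). Here and below ± after a log2 value is its SE, and adjusted p is Benjamini-Hochberg over all 12814 genes.

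The B cell markers CD79A, CD79B, MS4A1, CD22 and PAX5 had means above 5 CPM in the DMSO libraries of each line. The 2 T cell and 3 monocyte markers in the table (CD2, CD4, LYZ, CSF1R and ITGAM) had means of at most 1.68 CPM in each line, apart from CD2 in Toledo and OCILy10 (9.07 CPM) and CD4 in TMD8 (6.40 CPM). Of 8 listed markers of germinal centre type lymphoma, 5 had means above 5 CPM in DOHH2 and in Toledo, 3 in OCILy10 and 6 in TMD8, so that their number did not separate the usual types. In the libraries labelled DOHH2 the means were 44.4 CPM for STAP1, 28.7 for MME, 26.6 for S1PR2, 11.5 for ITPKB and 7.74 for SERPINA9. MYBL1 stood at 0.773 CPM, LMO2 at 0.189 and BCL6 at 0 there, and LMO2 was also below 1 CPM in Toledo (0.235) and OCILy10 (0.453). SDC1, the plasma cell surface proteoglycan CD138, stood at 228 ± 71.7 CPM there, against a highest value of 1.09 CPM in any DMSO library of the other 3 lines. JCHAIN, the joining chain of secreted antibody, averaged 3235 CPM in DOHH2 and 297 CPM or less elsewhere. Of 20 listed plasma cell genes, 19 had means above 5 CPM in DOHH2, against 15 in Toledo, 16 in OCILy10 and 15 in TMD8. The libraries labelled DOHH2 thus bore the usual germinal centre typing out only in part. Whether they are of the named line was not tested, and below they are grouped by that typing alone.

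**Figure D1:**
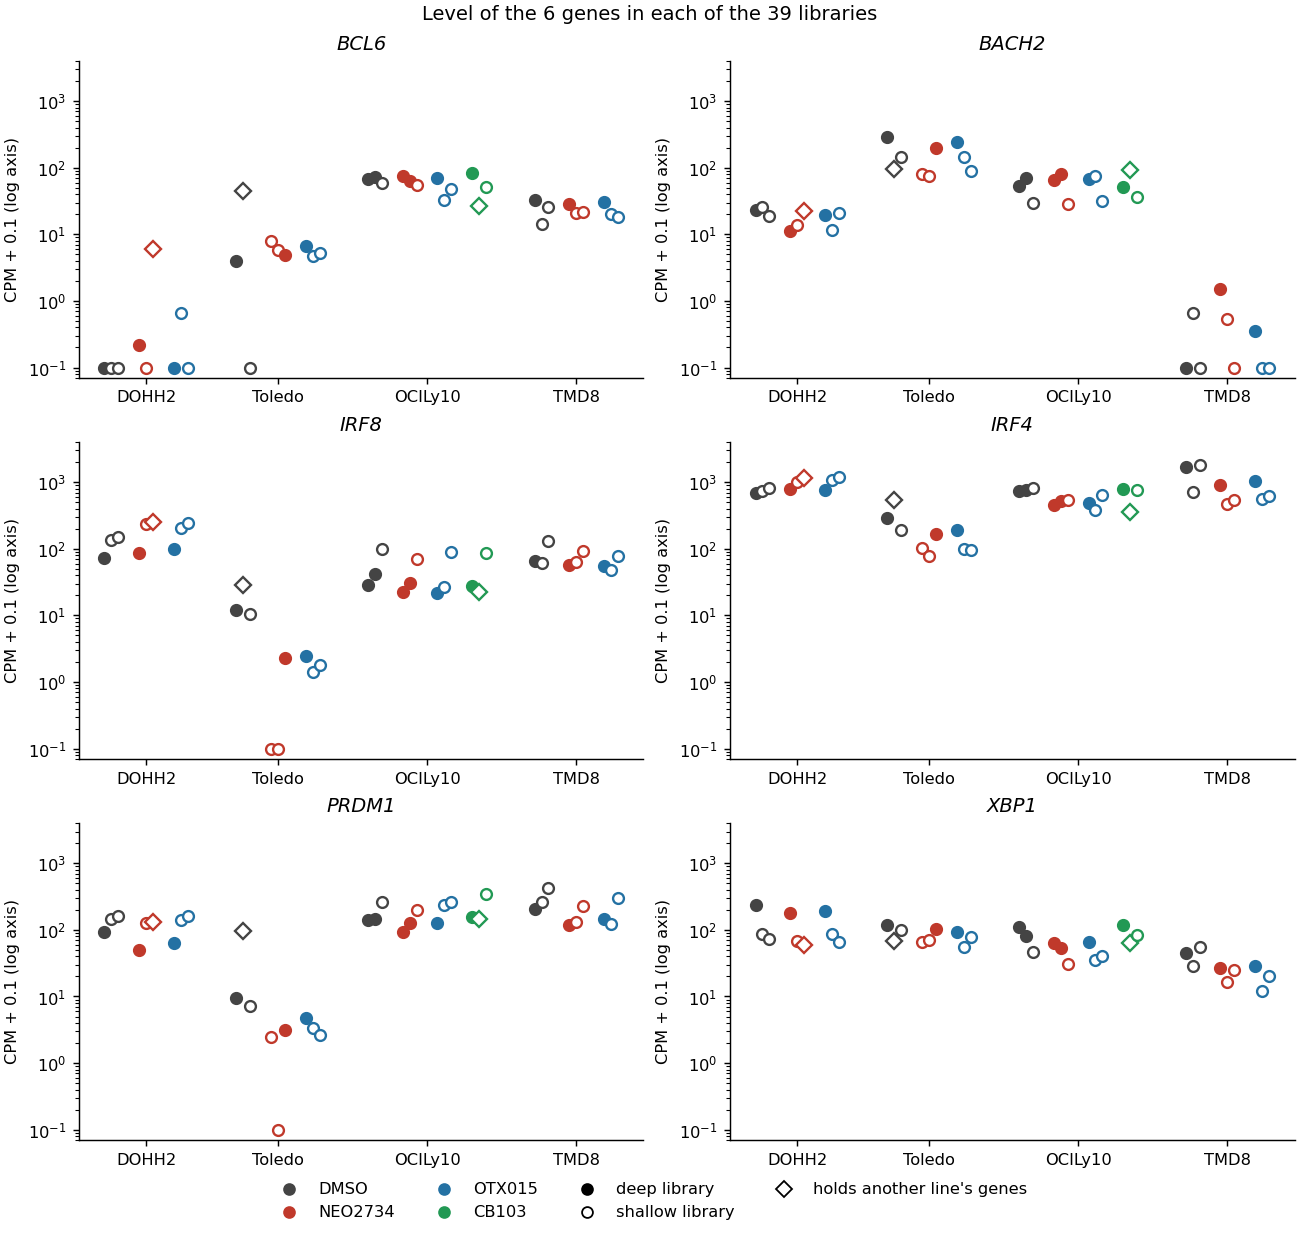
Level of each gene in each library, as CPM plus 0.1 on a log axis, grouped by line and coloured by treatment. Filled points are deep and open points shallow libraries, and diamonds mark the 3 libraries with a second line's genes. BCL6 lay at the bottom of the axis in all 3 DOHH2 DMSO libraries and BACH2 in 2 of 3 TMD8 DMSO libraries. PRDM1 and IRF8 in Toledo stood below the libraries of the other lines in all treatments, apart from Toledo DMSO replicate 2.

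BCL6, the repressor that defines the germinal centre B cell, was highest in OCILy10. Its DMSO libraries there held 67.9, 72.1 and 58.2 CPM, a mean of 66.1 ± 7.13 (SD). TMD8 held 32.9, 14.4 and 25.5 CPM, and Toledo held 3.95, 45.1 and 0 CPM. DOHH2 had no BCL6 read in any DMSO library, and 3 counts over the group would be 0.250 CPM. The 45.1 CPM in Toledo was in replicate 2, the library with OCILy10 genes, so that without it Toledo lay between 0 and 3.95 CPM. From counts summed over libraries, OCILy10 held 68.5 CPM and TMD8 29.2 CPM, and the 95% exact counting interval of their ratio to DOHH2 began at 222-fold and 94.4-fold, which covers counting error only. OCILy10 and TMD8 did not overlap, but their difference did not pass (log2 1.43 ± 0.82, adjusted p = 0.244). Without the 3 libraries it passed (1.47 ± 0.44, adjusted p = 0.0183), as did Toledo below OCILy10 (-4.64 ± 0.63, adjusted p = 4.59e-06) and below TMD8 (-3.18 ± 0.60, adjusted p = 0.000238). With all libraries those 2 differences were -1.95 (adjusted p = 0.117) and -0.52 (adjusted p = 0.724). For this and the other 5 genes, calls between lines in DMSO stand beside 15.9% to 30.1% of all genes called, depending on the pair. The share of all genes without overlap between lines was not counted.

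Neither bromodomain inhibitor moved BCL6 past the threshold in any line. In OCILy10 it stood at 74.9, 62.2 and 54.6 CPM after NEO2734 and at 69.9, 32.4 and 48.5 CPM after OTX015, and both sets overlapped the DMSO libraries. In TMD8 the values were 28.1, 20.6 and 21.4 CPM after NEO2734 and 30.6, 20.1 and 17.9 CPM after OTX015, again overlapping DMSO. The log2 change after NEO2734 was -0.05 in OCILy10, with a 95% interval from -1.69 to 1.59, and -0.06 in TMD8, with an interval from -1.74 to 1.62. In Toledo, NEO2734 libraries held 7.95, 5.63 and 4.84 CPM and OTX015 libraries 6.57, 4.57 and 5.11 CPM, above DMSO replicates 1 and 3 and below replicate 2. DOHH2 held 1, 0 and 11 counts after NEO2734, the 11 in replicate 3, the library with OCILy10 genes, and 0, 1 and 0 counts after OTX015. A mean fold over the 4 lines would rest on the empty DOHH2 group and is not given. In that mean, BCL6 after NEO2734 passed as higher without Toledo DMSO replicate 2 (adjusted p = 0.0255), a fit that keeps the empty group. With all libraries it did not pass, nor in any of 12 other alternative fits.

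BACH2, a repressor that delays plasma cell differentiation, was highest in Toledo. Its DMSO libraries held 291, 94.8 and 145 CPM, against 53.2, 69.7 and 29.1 CPM in OCILy10 and 23.0, 25.4 and 18.8 CPM in DOHH2. TMD8 held a single BACH2 count over 3 DMSO libraries. Every Toledo library was above every library of the other lines, also that with OCILy10 genes. Toledo exceeded OCILy10 by 1.80 ± 0.52 on the log2 scale (adjusted p = 0.0167), a call lost without Toledo DMSO 1 (1.16), OCILy10 DMSO 1 (1.79) or OCILy10 DMSO 3 (1.53). Without Toledo DMSO replicate 2 it was 2.10 (adjusted p = 0.00366). The step from OCILy10 to DOHH2 did not pass (adjusted p = 0.0913), although those libraries did not overlap. From the summed counts, the DOHH2 level was 299.7 times that of TMD8, with a 95% exact counting interval from 53.3 to 11879.

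After treatment the line means of BACH2 had the same order. It stood at 81.4, 75.4 and 201 CPM in Toledo after NEO2734 and at 246, 146 and 90.8 CPM after OTX015, overlapping DMSO. OCILy10 held 65.7, 81.5 and 28.5 CPM after NEO2734 and 66.7, 75.4 and 31.3 CPM after OTX015. DOHH2 held 11.1, 13.7 and 22.3 CPM after NEO2734 and 19.6, 11.7 and 20.8 CPM after OTX015, and both lines overlapped DMSO. TMD8 held 13, 1 and 0 counts after NEO2734 and 2, 0 and 0 counts after OTX015. The NEO2734 to DMSO ratio of summed counts in TMD8, 14 against 1, was 14.2 with an interval from 2.16 to 600.5, and 13 of the 14 counts were in the deep library. BACH2 passed the test for neither compound in any line.

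IRF8, an interferon regulatory factor of germinal centre and myeloid cells, had its lowest mean in Toledo. The DMSO libraries held 71.8, 136 and 148 CPM in DOHH2, 65.7, 60.9 and 130.2 in TMD8, 28.6, 41.2 and 98.4 in OCILy10 and 12.0, 29.0 and 10.2 in Toledo. Toledo was below DOHH2 (log2 difference of DOHH2 minus Toledo 2.75 ± 0.67, adjusted p = 0.00303) and below TMD8 (-2.28 ± 0.66, adjusted p = 0.0107), the latter lost without TMD8 DMSO 3 (-1.85) or Toledo DMSO 1 (-2.06) or 3 (-2.07). Without Toledo DMSO replicate 2 these were 3.37 (adjusted p = 0.00246) and -2.91 (adjusted p = 0.00584). Toledo and OCILy10 overlapped and did not pass (-1.66 ± 0.65, adjusted p = 0.0832), but passed without that library (-2.28, adjusted p = 0.0248). The neighbours DOHH2 and TMD8, and TMD8 and OCILy10, did not differ beyond their spread (adjusted p = 0.665 and 0.552). Deep libraries had lower IRF8 means than shallow ones in 11 of 13 groups.

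IRF8 in Toledo fell after both inhibitors. NEO2734 libraries held 0, 0 and 2.16 CPM, from 0, 0 and 21 counts, and OTX015 libraries held 2.40, 1.31 and 1.70 CPM, all below the 3 DMSO libraries. Of all genes tested, 13.1% after NEO2734 and 10.4% after OTX015 did not overlap DMSO in Toledo, in either direction. The log2 change of IRF8 was -3.82 ± 0.81 after NEO2734 (adjusted p = 0.00638) and -3.13 ± 0.79 after OTX015 (adjusted p = 0.0292). Without Toledo DMSO replicate 2 the changes were -3.17 (adjusted p = 0.0858) and -2.50 (adjusted p = 0.395), so that neither passed. The OTX015 call was also lost without any 1 of the 3 OTX015 libraries (-3.49 to -3.01). In the DOHH2 libraries IRF8 stood higher after treatment, at 85.5, 239 and 249 CPM with NEO2734 and 98.5, 204 and 244 CPM with OTX015, without passing (log2 0.69 and 0.62, adjusted p = 0.719 and 1). OCILy10 held 22.4, 31.0 and 70.9 CPM after NEO2734 and 21.5, 26.4 and 88.9 CPM after OTX015. TMD8 held 56.8, 62.5 and 91.8 CPM after NEO2734 and 54.8, 48.8 and 79.0 CPM after OTX015. Both lines overlapped DMSO for both compounds. Fewer cells of a type and less RNA per cell cannot be told apart in these bulk libraries.

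IRF4, the factor that drives B cells out of the germinal centre programme and a survival factor of activated type lymphoma, was the most abundant of the 6 genes per length in each line. The DMSO libraries held 1710, 712 and 1825 CPM in TMD8, 742, 759 and 829 in OCILy10, 679, 747 and 818 in DOHH2 and 295, 535 and 192 in Toledo. Toledo lay below all libraries of the other lines. Toledo was lower than TMD8 by a log2 difference of -2.05 ± 0.40 (adjusted p = 0.000294) and lower than OCILy10 by -1.18 ± 0.39 (adjusted p = 0.036), and DOHH2 exceeded it by 1.13 ± 0.39 (adjusted p = 0.0329). Among TMD8, OCILy10 and DOHH2 no difference passed (adjusted p = 0.116 for OCILy10 against TMD8, 0.0752 for DOHH2 against TMD8 and 0.952 for DOHH2 against OCILy10). Without TMD8 DMSO replicate 2 TMD8 passed as higher, with -1.19 for OCILy10 minus TMD8 (adjusted p = 0.038) and -1.24 for DOHH2 minus TMD8 (adjusted p = 0.0212). The same held in deep libraries alone (adjusted p = 0.0169 and 0.0204), and DOHH2 against TMD8 also passed without the 3 libraries (-0.94, adjusted p = 0.0447). The calls against OCILy10 and DOHH2 were each lost without Toledo DMSO 1 (-1.12 and 1.01) or 3 (-0.90 and 0.85) or without any 1 of the other line's 3 libraries (OCILy10 -1.25 to -1.13, DOHH2 1.06 to 1.19). Without the 3 mixed-signal libraries named above, Toledo stayed below the other 3 lines, with log2 differences of 1.63, -1.73 and -2.57 for DOHH2 minus Toledo, Toledo minus OCILy10 and Toledo minus TMD8.

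The IRF4 mean was lower after both inhibitors in 3 lines and higher in the libraries labelled DOHH2. OCILy10 held 461, 521 and 533 CPM after NEO2734 and 481, 388 and 645 CPM after OTX015, all 6 below the lowest DMSO library at 742 CPM. Of all genes tested, 20.0% after NEO2734 and 12.6% after OTX015 did not overlap DMSO in OCILy10, in either direction. TMD8 held 913, 471 and 533 CPM after NEO2734 and 1043, 557 and 621 CPM after OTX015, and DMSO replicate 2 at 712 CPM fell among them. Toledo held 103, 77.1 and 168 CPM after NEO2734, all below DMSO, and 195, 98.6 and 95.9 CPM after OTX015, where 1 library lay just above the lowest DMSO value of 192. DOHH2 held 781, 1009 and 1167 CPM after NEO2734 and 770, 1070 and 1219 CPM after OTX015, which overlapped DMSO at the low end.

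Over the 4 lines IRF4 fell by 0.73 ± 0.19 on the log2 scale after NEO2734 (adjusted p = 0.00654), which is 1.66-fold, and by 0.63 ± 0.19 after OTX015 (adjusted p = 0.0316). Within lines the NEO2734 change was -1.55 ± 0.39 in Toledo (adjusted p = 0.0198), -1.15 ± 0.39 in TMD8 (0.141), -0.62 ± 0.38 in OCILy10 (0.638) and 0.40 ± 0.38 in DOHH2 (0.751), so that Toledo alone passed. A test of the difference between the 4 lines did not pass after adjustment over all genes (adjusted p = 0.426). Without Toledo DMSO replicate 2 the averaged NEO2734 call was kept (-0.61, adjusted p = 0.0208), and the Toledo call was lost (-1.07, adjusted p = 0.291), as it also was without Toledo NEO2734 replicate 1 (-1.47) or 2 (-1.33). After OTX015 Toledo passed with -1.39 ± 0.39 (adjusted p = 0.046), a call lost without DMSO replicate 2 (-0.91, adjusted p = 0.62) or OTX015 replicate 2 (-1.23) or 3 (-1.21). In deep libraries alone the averaged NEO2734 change was -0.55 (adjusted p = 0.072), and in shallow ones -0.89 (adjusted p = 0.0311). The OTX015 call was kept in 14 of 24 fits that each left out a library, with changes from -0.61 to -0.50 where it was lost. It was lost without Toledo DMSO replicate 2 (-0.50, adjusted p = 0.0885) and without DOHH2 DMSO 3, TMD8 DMSO 1 or 3, DOHH2 OTX015 1, OCILy10 OTX015 2, TMD8 OTX015 2 or 3, or Toledo OTX015 2 or 3.

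PRDM1, whose product BLIMP1 shuts down the B cell programme, had the same order of line means as IRF4. The DMSO libraries held 205, 259 and 428 CPM in TMD8, 140, 148 and 264 in OCILy10, 93.2, 146 and 160 in DOHH2 and 9.47, 96.7 and 7.16 in Toledo. The 96.7 CPM was in replicate 2, and the other 2 Toledo libraries lay far below every library of the other lines. Toledo was below TMD8 (-2.93 ± 0.68, adjusted p = 0.00179) and below OCILy10 (-2.23 ± 0.66, adjusted p = 0.0196), and DOHH2 exceeded it by 1.77 ± 0.66 (adjusted p = 0.0494). Without the 3 libraries these became -5.13, -4.46 and 3.95. The call against OCILy10 was lost without OCILy10 DMSO 3 (-1.88) or Toledo DMSO 1 (-1.77) or 3 (-1.80), and that against DOHH2 without those Toledo libraries (1.24 and 1.33) or any 1 DOHH2 library (1.61 to 1.97). The PRDM1 locus overlaps ATG5 on the opposite strand, and with the strandedness of the counting not given, reads of the 2 genes could not be told apart where they overlap.

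PRDM1 fell after NEO2734 over the 4 lines by 1.46 ± 0.34 on the log2 scale (adjusted p = 0.00208), which is 2.75-fold. Toledo held 2.34, 0 and 3.09 CPM after NEO2734 and 4.68, 3.27 and 2.56 CPM after OTX015, all below each DMSO library. TMD8 held 118, 130 and 226 CPM after NEO2734, OCILy10 held 93.0, 127 and 196, and DOHH2 held 49.4, 126 and 133, lower in mean than DMSO in each line and overlapping it. Within lines only Toledo passed, with -4.13 ± 0.80 for NEO2734 (adjusted p = 0.00325) and -3.39 ± 0.76 for OTX015 (adjusted p = 0.0169). Without Toledo DMSO replicate 2, whose PRDM1 was 11.6 times the mean of the other 2 Toledo DMSO libraries, those became -1.96 (adjusted p = 0.228) and -1.21 (adjusted p = 0.696), and neither passed. The OTX015 call in Toledo was also lost without any 1 of the 3 OTX015 libraries (-3.75 to -3.21). The averaged NEO2734 call was kept without that library at -0.91 (adjusted p = 0.0159), in deep libraries alone at -0.95 (adjusted p = 0.0203) and in shallow ones alone at -1.77 (adjusted p = 0.0137).

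After OTX015, PRDM1 fell by 1.00 ± 0.33 over the 4 lines (adjusted p = 0.0471). OCILy10 held 126, 238 and 259.8 CPM after OTX015, higher in mean than DMSO, while TMD8 held 144, 123 and 302 and DOHH2 held 62.6, 143 and 162. The OTX015 call was kept in 5 of 24 fits that left out 1 library, with changes from -1.09 to -0.45 where it was lost. The 5 were those without DOHH2 DMSO 1, TMD8 DMSO 1, Toledo DMSO 1 or 3, or TMD8 OTX015 3. Without Toledo DMSO replicate 2 the change was -0.45 (adjusted p = 0.341). Deep libraries alone gave -0.58 (adjusted p = 0.132) and shallow ones -1.28 (adjusted p = 0.0572). PRDM1 means were lower in the deep than in the shallow libraries in 11 of 13 groups.

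XBP1, the driver of the secretory and unfolded protein response genes, did not follow IRF4 and PRDM1 across lines. The DMSO libraries held 238, 87.2 and 73.1 CPM in DOHH2, 119, 68.3 and 99.2 in Toledo, 109, 80.5 and 47.2 in OCILy10 and 45.3, 28.8 and 54.8 in TMD8. TMD8, the line with the highest IRF4 and PRDM1 means, had the lowest XBP1 mean. DOHH2 exceeded TMD8 (1.63 ± 0.48, adjusted p = 0.00949), a call lost without DOHH2 DMSO replicate 1 (0.89, adjusted p = 0.195) or TMD8 DMSO replicate 2 (1.42, adjusted p = 0.0587), and no neighbours in the order passed. In all 13 groups the deep libraries had a higher XBP1 mean than the shallow ones.

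After NEO2734 XBP1 stood at 27.1, 16.2 and 24.5 CPM in TMD8, all below DMSO, and at 62.7, 53.4 and 31.0 CPM in OCILy10. Of all genes tested, 17.9% did not overlap DMSO in TMD8 after NEO2734, in either direction. DOHH2 held 181, 67.8 and 58.9 CPM and Toledo 66.4, 69.8 and 104 CPM, overlapping DMSO as OCILy10 did. After OTX015 it stood at 28.9, 12.2 and 20.5 CPM in TMD8, where the highest library lay just above the lowest of DMSO, and at 65.3, 35.4 and 41.0 CPM in OCILy10. DOHH2 then held 195, 85.9 and 66.7 CPM and Toledo 92.2, 56.2 and 78.0 CPM. Its averaged log2 change was -0.56 ± 0.23 after NEO2734 (adjusted p = 0.0944) and -0.57 ± 0.23 after OTX015 (adjusted p = 0.119), neither past the threshold. The first passed without DOHH2 NEO2734 replicate 1 (-0.73, adjusted p = 0.0201) and the second without DOHH2 OTX015 replicate 1 (-0.73, adjusted p = 0.0379). With the replicate number as a block it passed for both, at -0.54 ± 0.10 (adjusted p = 0.000401) and -0.56 ± 0.10 (adjusted p = 0.000603). Within TMD8, where the numbers paired the libraries, the blocked changes were -0.91 (adjusted p = 0.0137) and -1.06 (adjusted p = 0.012), against -0.92 and -1.03 without the block (adjusted p = 0.478 and 0.662). The replicate number also follows depth, since replicate 1 was a deep library in 12 of 13 groups, and depth as a term gave the same calls.

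**Figure D2:**
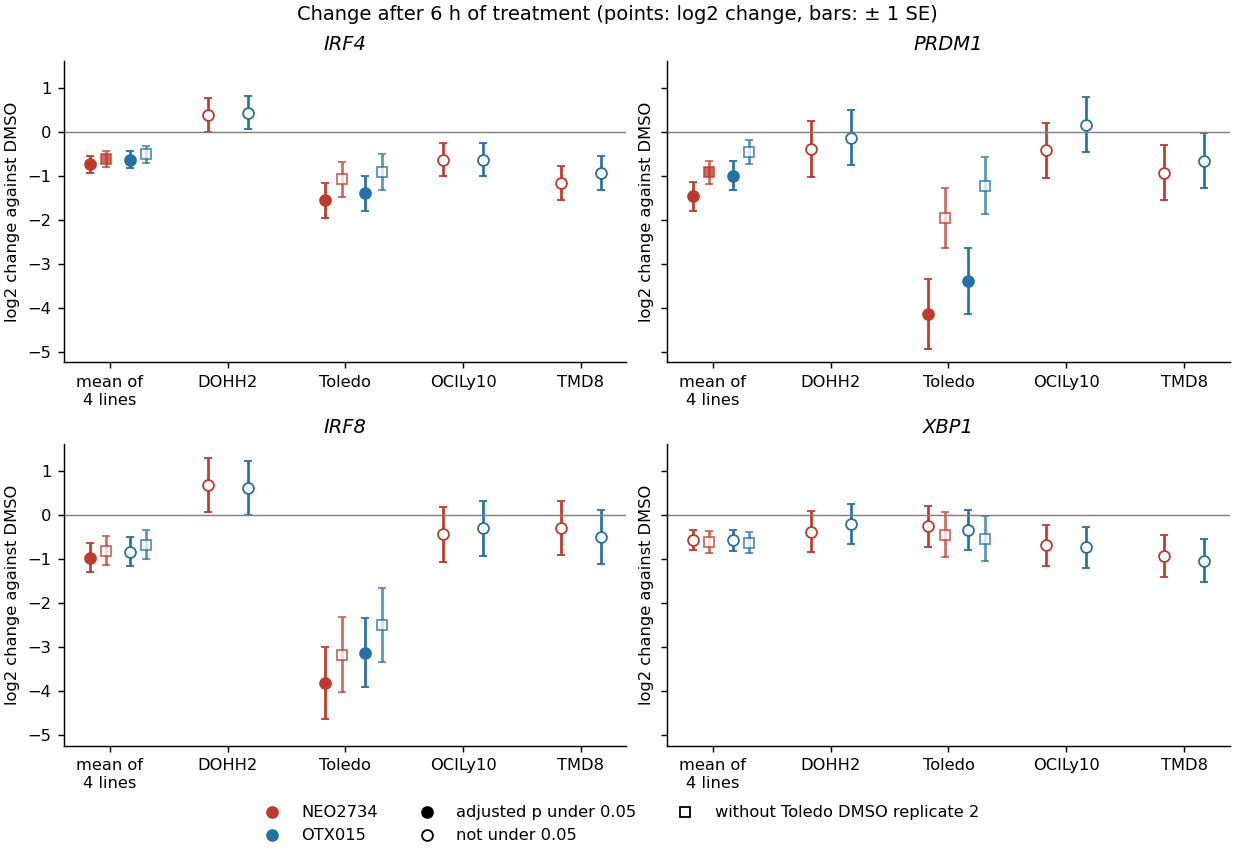
Log2 change against DMSO (points) with ± 1 SE (bars) for IRF4, PRDM1, IRF8 and XBP1, averaged over the lines and in each line. Filled symbols passed adjusted p under 0.05, and squares leave out Toledo DMSO replicate 2. The filled circles in Toledo turn to open squares once that library is left out, while IRF4 and PRDM1 after NEO2734 stay filled in the mean of 4 lines.

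Counted together, 3 of the 6 genes passed as lower after NEO2734 over the 4 lines (IRF4, PRDM1 and IRF8) and 0 as higher. Over all genes tested, 20.5% were called, 11.2% as lower. IRF8 fell by 0.96 ± 0.33 (adjusted p = 0.0388). Its call was kept in 12 of 24 fits without 1 library, with changes from -0.94 to -0.80 in the others. It was lost without Toledo DMSO replicate 2 (-0.80, adjusted p = 0.102), without DOHH2 DMSO 2 or 3, OCILy10 DMSO 3, TMD8 DMSO 3, DOHH2 NEO2734 1, OCILy10 NEO2734 1 or 2, TMD8 NEO2734 1 or 2, or Toledo NEO2734 1 or 2. It was -2.33 without Toledo NEO2734 replicate 3, the only one of its group with an IRF8 read. Deep libraries alone gave -0.72 (adjusted p = 0.0769) and shallow ones -2.07 (adjusted p = 0.0224).

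After OTX015, 2 of the 6 passed as lower (IRF4 and PRDM1), where 11.6% of all genes were called, 6.06% as lower and 5.53% as higher. IRF8 fell short with -0.82 ± 0.33 (adjusted p = 0.112) and passed with the replicate block (-0.79, adjusted p = 0.00283) and without OCILy10 OTX015 replicate 3 (-1.05, adjusted p = 0.0376). Both averaged contrasts share the DMSO libraries. In Toledo 3 of 6 passed after each compound, all as lower, where 5.47% of genes were called after NEO2734 (4.20% as lower) and 3.09% after OTX015 (2.59% as lower), and 0 of 6 passed in either without DMSO replicate 2. In the other lines 0 of 6 passed with edgeR, where 2.90%, 1.01% and 2.17% of genes were called after NEO2734 in DOHH2, OCILy10 and TMD8, and 0.125%, 0.0702% and 0.390% after OTX015. As lower, 1.44% were called in TMD8 after NEO2734 and 0.0546% in DOHH2 after OTX015, and as higher 0.0390% in OCILy10 after OTX015. At an unadjusted p under 0.05 there were 1, 0 and 2 of the 6 after NEO2734 and 0, 0 and 2 after OTX015, and DESeq2 called 1, BCL6 in DOHH2 after NEO2734, from the counts given above.

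NEO2734 and OTX015 were set side by side without known doses, and 0 of the 6 genes differed in the mean over lines, where 0.0312% of all genes were called and 0 of the 6 had an unadjusted p under 0.05. The log2 difference of NEO2734 minus OTX015 was -0.11 for IRF4, with a 95% interval from -0.50 to 0.29, and -0.46 for PRDM1, from -1.17 to 0.25. It was -0.14 for IRF8, from -0.86 to 0.58, and 0.02 for XBP1, from -0.47 to 0.50. These intervals leave room for differences in either direction.

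CB103 in OCILy10 gave 0 calls among the 6 genes and 0% over all genes with edgeR. At an unadjusted p under 0.05 there were 273 genes and 0 of the 6. The number over all genes depended on the fit: DESeq2 called 20 genes. With edgeR the replicate block called 14, and the other deposited table, which differs in a CB103 library, called 16. Of the 6 genes, 0 were called in any of 13 alternatives. IRF4 held 802, 362 and 762 CPM after CB103, the 362 in replicate 2, which held Toledo genes. PRDM1 held 154, 146 and 352 CPM, BCL6 held 83.3, 26.6 and 51.6, and BACH2 held 51.6, 93.6 and 35.9. Replicate 2 was thus the lowest of its group for IRF4 and BCL6 and the highest for BACH2. IRF8 held 27.7, 22.1 and 85.7 CPM and XBP1 held 118, 63.9 and 82.9, both overlapping DMSO. The log2 change of IRF4 was -0.28 ± 0.38 with all libraries and 0.01 without replicate 2, that of BCL6 -0.29 and 0.04, and that of BACH2 0.25 and -0.21, and none of the 3 was called in either fit (adjusted p = 1).

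**Figure D3:**
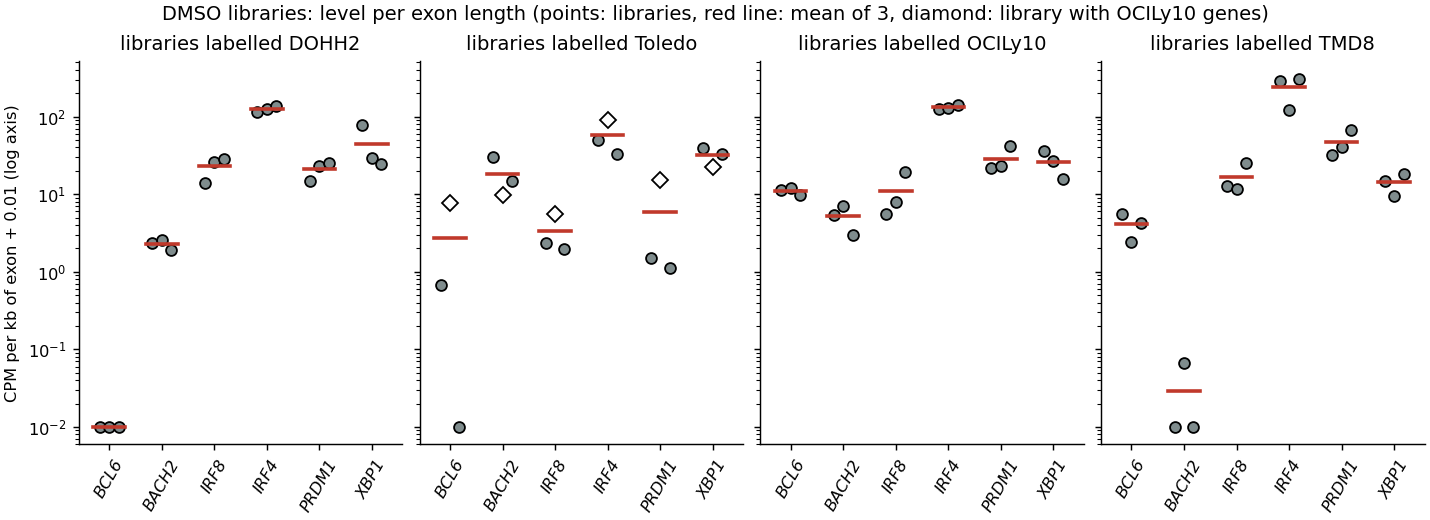
DMSO libraries of each line, in CPM per kilobase of merged exon plus 0.01 on a log axis, so that genes can be compared. Points are libraries, red lines the mean of 3, and the diamond is the Toledo library that held OCILy10 genes. IRF4 was the highest of the 6 in each line, with means from 57.8 in Toledo to 240.0 in TMD8.

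Per kilobase of exon, IRF4 averaged 126.9 CPM in DOHH2, 57.8 in Toledo, 131.7 in OCILy10 and 240.0 in TMD8. The gene next below it differed by line: XBP1 in DOHH2 (43.8) and in Toledo (31.5), and PRDM1 in OCILy10 (28.8) and in TMD8 (46.5). BCL6 averaged 11.1 CPM per kilobase in OCILy10 and 4.09 in TMD8, below IRF4 and PRDM1 in both. The means of OCILy10 and TMD8 were set against those of DOHH2 and Toledo in DMSO, where 29.0% of all genes were called. Of the 6, 3 were higher in the activated type pair (BCL6, IRF4 by 1.05 ± 0.27 and PRDM1 by 1.70 ± 0.46, adjusted p = 3.39e-05, 0.00377 and 0.00518). BACH2 (adjusted p = 2.16e-07) and XBP1 (-0.95 ± 0.33, adjusted p = 0.0295) were lower, and IRF8 did not pass (0.60 ± 0.44, adjusted p = 0.36). Folds of BCL6 and BACH2 are not given, since DOHH2 and TMD8, respectively, held next to none. Both calls average in such a near-empty line and do not show a difference common to the lines of a type. BACH2 averaged 50.7 CPM in OCILy10, above DOHH2 at 22.4 CPM. PRDM1 moved to 2.82 without the 3 libraries. XBP1 no longer passed without DOHH2 DMSO 1 (-0.58, adjusted p = 0.201), Toledo DMSO 1 (-0.80) or 3 (-0.94), OCILy10 DMSO 2 (-0.96) or 3 (-0.82), or TMD8 DMSO 2 (-0.85). In that comparison 9 of 11 listed markers of activated type lymphoma were higher and 0 lower (median log2 1.81, all genes -0.04), IRF4 being 1 of the 9. Of 8 germinal centre type markers 2 were higher, BCL6 being 1, and 3 lower. Of 19 tested plasma cell genes 4 were higher and 7 lower. Of 25 XBP1 targets and secretory genes 2 were higher and 10 lower (median -0.52). These counts stand beside 1792 of all 12814 genes tested called higher (14.0%) and 1926 called lower in the same comparison. A test of the difference in response between the pairs passed for 0 of the 6 genes for either compound, with edgeR, where 0.0156% of all genes were called for NEO2734 and 0% for OTX015. At an unadjusted p under 0.05 there were 2 and 1 of the 6, PRDM1 after NEO2734 among them (1.59 ± 0.67, and 0.62 ± 0.56 without the 3 libraries).

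Across the 13 group means of log2(CPM + 1), IRF8 and IRF4 had a Pearson r of 0.96, IRF4 and PRDM1 0.92, and IRF8 and PRDM1 0.88. Without the 3 Toledo groups, over 10 groups, these were 0.73, 0.03 and -0.58. The groups share lines, libraries of both depths and the DMSO controls, so r is a description only. BACH2 and XBP1 had an r of 0.71, and 0.69 without Toledo. BCL6 and PRDM1 had 0.32, and 0.65 without Toledo. BCL6 and IRF8 had -0.12, and -0.92 without Toledo, the r furthest from 0 of any pair there.

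**Figure D4:**
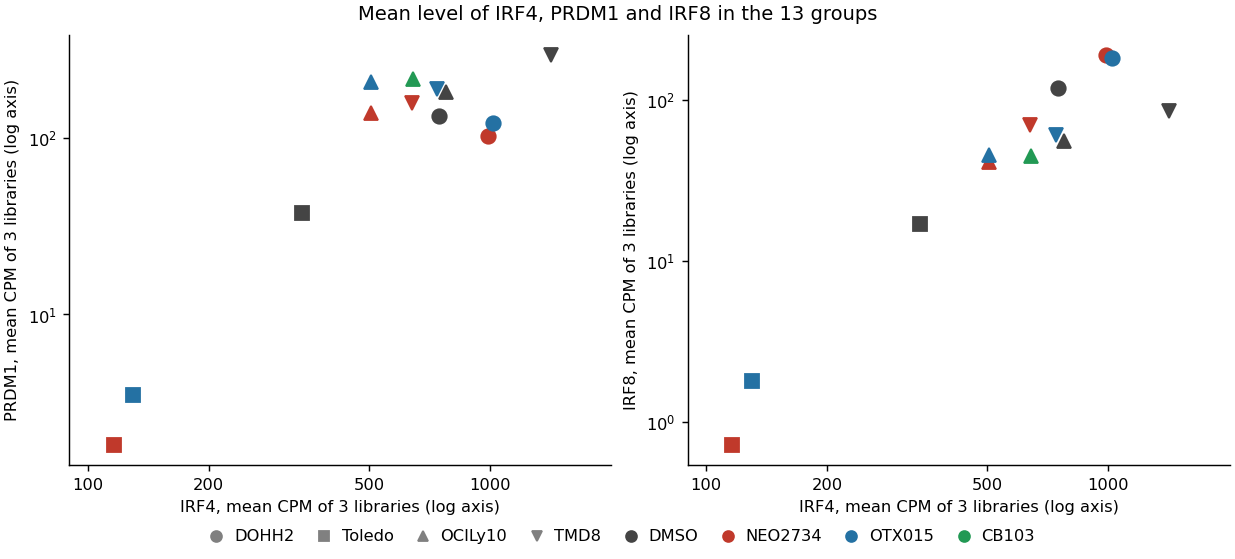
Mean CPM of PRDM1 (left) and IRF8 (right) against IRF4 in the 13 groups, on log axes, with the line as the shape and the treatment as the colour. The Toledo groups lie at the lower left, with IRF4 means of 116 to 341 CPM, apart from the 10 groups of the other lines, over which PRDM1 and IRF4 had an r of 0.03.

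Among 12058 other genes with at least 5 CPM in a group, those most like each of the 6 were found by the same r over 13 groups. For IRF4 they were ZNF496 (0.97) and SLAMF7 (0.97), a surface receptor of plasma cells. SLAMF7 was also among the nearest to IRF8 (0.97), with POLL (0.97). In DMSO it averaged 12.0 CPM in Toledo against 64.6 to 168 CPM in the other lines. The r of these nearest genes was not computed without Toledo. PRDM1 was nearest to LAPTM5 (0.99) and MTX3 (0.98). BCL6 was nearest to TUBB6 (0.98) and ELF4 (0.98), BACH2 to SLC9A7 (0.99) and WASF2 (0.99), and XBP1 to NLRX1 (0.98) and INTS14 (0.97).

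Genes around the 6 were read from lists in the averaged NEO2734 contrast, in which the median of all genes was -0.02. Of 19 tested plasma cell genes, 8 fell and 0 rose (median -0.73), the 8 including IRF4 and PRDM1. TNFRSF17, the BCMA receptor, fell by 2.99 ± 0.59 and SLAMF7 by 1.61 ± 0.34. Without the 3 libraries with another line's genes the counts were 8 lower and 2 higher. After OTX015, 7 fell, and 3 fell and 1 rose without the 3 libraries.

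Of 10 genes that PRDM1 is known to repress, 5 fell and 0 rose (median -0.49, and -1.04 over the 8 genes other than BCL6 and BACH2). PAX5, which maintains B cell identity, fell by 1.54 ± 0.12 and CIITA, the regulator of MHC class II genes, by 1.76 ± 0.23. MS4A1, a B cell marker which encodes CD20, fell by 1.57 ± 0.25. Without the 3 libraries the count of genes that PRDM1 is known to repress was also 5 lower.

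Of 20 genes that BCL6 is known to repress, 7 fell and 1 rose (median -0.30). The chemokine gene CXCL10 fell by 3.94 ± 0.61 and CD80, a costimulatory ligand, fell by 2.08 ± 0.32, while CDKN1B, a cell cycle inhibitor, rose by 0.42 ± 0.11. PRDM1 is itself among the 7. After OTX015 6 fell and 0 rose (median -0.37). Leaving out the 3 libraries gave 6 fallen and 1 risen after NEO2734, and 4 fell and 0 rose after OTX015 (median -0.16). Of 8 BCL6 corepressors and turnover factors, 1 fell (TBL1XR1, by 0.72 ± 0.13) and 1 rose (FBXO11, part of a ligase that degrades BCL6, by 0.55 ± 0.16).

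Of 20 germinal centre regulators 9 fell and 1 rose (median -0.37), IRF8 being 1 of the 9, and after OTX015 5 fell and 1 rose. With those 3 libraries left out 8 fell and 1 rose after NEO2734. EBF1, a B lineage factor, fell by 1.36 ± 0.20 and MYBL1 rose by 1.29 ± 0.30. Of 8 germinal centre type lymphoma markers 4 fell, ITPKB by 1.55 ± 0.24 and S1PR2 by 1.27 ± 0.33, and MYBL1 rose. Without the 3 libraries 2 fell. Of 11 activated type markers 7 fell and 0 rose (median -0.94), the cytokine gene IL16 by 2.04 ± 0.22 and ETV6 by 1.00 ± 0.16, and 5 fell without the 3 libraries. Of 2 tested T cell markers 0 were called.

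Of 13 DNA-binding partners of IRF4, IRF8 and BACH2, 5 fell and 1 rose (median -0.45). IKZF1 fell by 1.69 ± 0.23 and IKZF3 by 1.10 ± 0.17, both Ikaros family factors of lymphocytes, and JUND, an AP-1 subunit, rose by 1.28 ± 0.39. Without the 3 libraries 4 fell and 0 rose. Of 6 other interferon regulatory factors 3 fell (median -0.31), IRF2 by 1.27 ± 0.10 and IRF5 by 1.82 ± 0.40, and 0 rose. Of 25 XBP1 targets and secretory pathway genes 2 rose and 1 fell (median -0.00). DNAJC3 rose by 0.53 ± 0.11, ERN1, the sensor that splices XBP1 mRNA, rose by 0.45 ± 0.16, and PDIA6 fell by 0.53 ± 0.15. Members of a list share libraries and are not replicates. The counts after NEO2734 stand beside 9.29% of all genes called higher and 11.2% called lower, and those after OTX015 beside 5.53% and 6.06%. Without the 3 libraries, 16.3% of 13160 genes were called after NEO2734 and 9.45% after OTX015.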

How the data were processed

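The authors deposited whole-number counts per gene for 39 libraries of human lymphoma lines in 2 tables. In 38 columns the tables were equal, and in OCILy10 CB103 replicate 1 the totals were 11430777 and 5474462. The table named as raw was used, the other was an alternative, and both hold counts, per the file headers and values. STAR, edgeR and the build hg38 are named in the submitters' processing notes. Not given in the sources used here: versions, counting program, annotation, strandedness. Gene IDs were matched without version to GENCODE (GRCh38) (15668 of 15808), and promoters come from RefSeq.

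Groups came from the sample labels. A negative binomial quasi-likelihood model was fitted with edgeR 4.0.16 in R 4.3.3 to all 39 libraries, with 1 term per group, TMM scaling and a filter at 10 counts, leaving 12814 genes. Every adjusted p is from that test, called under 0.05, unless a sentence names DESeq2 (1.42.0) or voom in limma (3.58.1). Averaged contrasts weight the 4 lines equally. The SE is the log2 change over the square root of F. On simulated counts of 12273 genes the averaged NEO2734 contrast recovered 58% of genes lowered 2-fold and 84% of those lowered 4-fold. The Toledo NEO2734 contrast recovered 14% and 50%. Of 169 genes called in the first 13 were false, and of 81 in Toledo 9 were false. The simulation changed 50 genes at each fold, fewer in all than were called in the data. Their means were above 5 CPM, so genes near 0, as IRF8 and PRDM1 in Toledo, were not covered.

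Same-numbered libraries deviated together in DOHH2 (r from 0.25 to 0.915) and TMD8 (0.301 to 0.91) in each pair, but not in Toledo (-0.764 to 0.575) or OCILy10 (-0.594 to 0.89), and no label says what a number marks. Genes of a single line were those above 10 CPM in each library of that line with a 90th percentile under 1 CPM in the others. The 3 libraries with another line's genes were set aside in that choice. All 6 genes are named, with the 2 most like genes each, MYC and HEXIM1, and, from each list and apart from the 6, up to 2 called rises and 2 called falls of lowest p after NEO2734. SDC1, JCHAIN and the listed germinal centre type markers were named after their values were seen. The genes and lists were chosen with earlier results of these data known. Depth as a term and list counts without 3 libraries were added after seeing the data. Total counts limit precision, and counting intervals and limits from 0 cover counting error only. A count over B cell markers is not reported here.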

Additional observations from a re-analysis of the deposited data

How the results depend on the processing

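Of the 6 genes, 3 were called after NEO2734 in the mean of 4 lines, and 2 to 3 with 1 library left out. Over 12 other alternatives PRDM1 kept its call in all, IRF4 lost it in 1 and IRF8 in 5. XBP1 gained a call in 3 of them, and the highest count was 4. After OTX015 2 were called, 1 with DESeq2's size factors, upper quartile scaling, no filter on low counts, limma-voom or the other deposited table, 4 with the replicate block or with depth as a term, and 0 without the 3 libraries with another line's genes, in deep or in shallow libraries alone. With 1 library left out this count was 0 to 2. In Toledo 3 were called after each compound. NEO2734 there gave 1 with limma-voom and OTX015 0, and both gave 0 without the 3 libraries, in deep libraries alone and with the line fitted alone, and 0 to 3 with 1 library left out. DESeq2 called 1 in DOHH2 after NEO2734 (BCL6). The replicate block called 1 in TMD8 after each compound (XBP1), as did depth as a term. Between lines in DMSO no paired analysis was possible because each block of line and number holds 1 DMSO library. The block paired libraries by number, changed no other call of the 6 genes within lines or in the means beside XBP1 and IRF8, given above, and gave 3653 called genes after NEO2734 and 2421 after OTX015 in the means, against 2630 and 1484.

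Genes called ranged from 727 to 3908 after NEO2734 and from 62 to 2582 after OTX015 over the alternatives. Over all contrasts and the 6 genes no direction of a called value reversed. In the other alternatives 1668 values kept their sign and their side of the threshold, 54 lost and 38 gained a call. A further 70, called in neither fit, changed sign. The cause was not tested. Deep libraries alone leave 1 or 2 libraries in each group, and the lone ones are assumed to vary like the others. The 24 shallow libraries, of at most 3420458 counts, limit BCL6, BACH2 and IRF8 where they were near 0.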
